A study of Sus scrofa with 8 samples.

Results

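The actin gene family was followed in the right ventricular free wall of pigs with and without pressure load. Its 6 genes are ACTA1 (skeletal muscle alpha-actin), ACTC1 (cardiac alpha-actin), ACTA2 (smooth muscle alpha-actin), ACTG2 (smooth muscle gamma-actin), ACTB (cytoplasmic beta-actin) and ACTG1 (cytoplasmic gamma-actin). They were chosen by name as a family, with earlier results of these data known, and are 6 of the 31908 gene models counted. The names of 5 came from the authors' deposited table. That table lists the ACTA1 model without a name, so ACTA1 was identified by its gene identifier in a reference table of gene names.

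Actin monomers assemble into the thin filaments that myosin pulls on in muscle and into the cytoskeleton of every cell. The 6 isoforms are encoded by separate genes and differ in few residues. ACTA1 and ACTC1 build the thin filaments of the sarcomere in striated muscle, ACTA2 and ACTG2 the contractile filaments of smooth muscle, and ACTB and ACTG1 the cytoskeleton. The adult heart mainly uses ACTC1, and ACTA1 is well known as part of the fetal gene set that cardiac muscle under load expresses. ACTA2 also marks pericytes and myofibroblasts.

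RNA was sequenced from bulk tissue of 8 Yorkshire Cross pigs, 1 library per pig. The 4 banded pigs were castrated males of 4.5 ± 0.6 weeks and 6.4 ± 1.3 kg at surgery, in which a tape around the main pulmonary artery raised right ventricular systolic pressure to roughly 30 to 40 mmHg. The 4 controls were of similar age and weight, were housed for 8 weeks and carry the treatment label None. No sham operation is named for them, their sex is not stated, and the time from banding to collection is not given in the sources used here. Surgery and pressure load therefore cannot be told apart. The labels give no batch and no pairing, and the numbers 1 to 4 below only name the libraries.

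The libraries held 31033679 to 34183338 assigned counts, of which mitochondrial-genome genes took 30.52 to 43.93%, lowest in banded 3 and highest in control 4. Levels are given as CPM, counts scaled to a common library total, after TMM scaling, an edgeR step that corrects that total for a few dominant genes. Differences are log2 fold changes of banded over control ± SE from edgeR's quasi-likelihood test, with Benjamini-Hochberg adjusted p over the 13697 genes that passed the count filter. All 6 actins passed it. Cardiac muscle genes were abundant in both groups: the 12 matched of 15 cardiomyocyte markers summed to 30590 to 41490 CPM in controls and 40270 to 53910 CPM in banded libraries. The ventricular light chain MYL2 alone reached at least 7651 CPM in each library. It was also the only 1 of the 12 that edgeR called, higher in banded (log2 fold change 0.915 ± 0.173, edgeR adjusted p = 0.0113). Over all genes tested 3.47% were called higher. At an unadjusted p under 0.05, 4 of the 12 were higher and 3 lower, beside 3262 of 13697 over all genes. One marker of that list, the cardiac troponin I gene TNNI3, was low for heart tissue (12.61 to 20.62 CPM in controls, 2.442 to 11.3 CPM in banded). Of the atrial list, 4 of 7 genes were matched, and their sum was 35.4 to 70.41 CPM in controls and 41.09 to 95.46 CPM in banded libraries. NPPA, MYL7 and KCNA5 were not matched, so this sum does not measure how much atrial muscle was present. Single libraries stood apart in other markers: the adipocyte list summed to 634.9 CPM in banded 1 (124.6 to 195.6 CPM in the other banded libraries, 182.7 to 239.7 CPM in controls), and the erythroid list to 1781 CPM in banded 4 (128.9 to 172.8 CPM in the other banded libraries, 74.54 to 320.7 CPM in controls).

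The sarcomeric pair changed in opposite directions, and the other 4 genes did not pass the test. ACTA1 rose 2.44-fold and ACTC1 was 2.78-fold lower in banded ventricles. Of the 6 members, 1 was called higher, against 3.47% of all genes tested, and 1 was called lower, against 3.5%; calls in either direction made up 6.97% of genes tested. The same 2 members were those whose groups did not overlap, a pattern found in 15.9% of all genes tested. The median log2 fold change of the 6 was -0.29, beside 0.01 over all genes tested. Over all genes, 475 were called higher and 479 lower; when libraries were scaled by their size alone, the split was 303 higher and 508 lower, and the median over all genes went from 0.015 to -0.085.

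**Figure D1:**
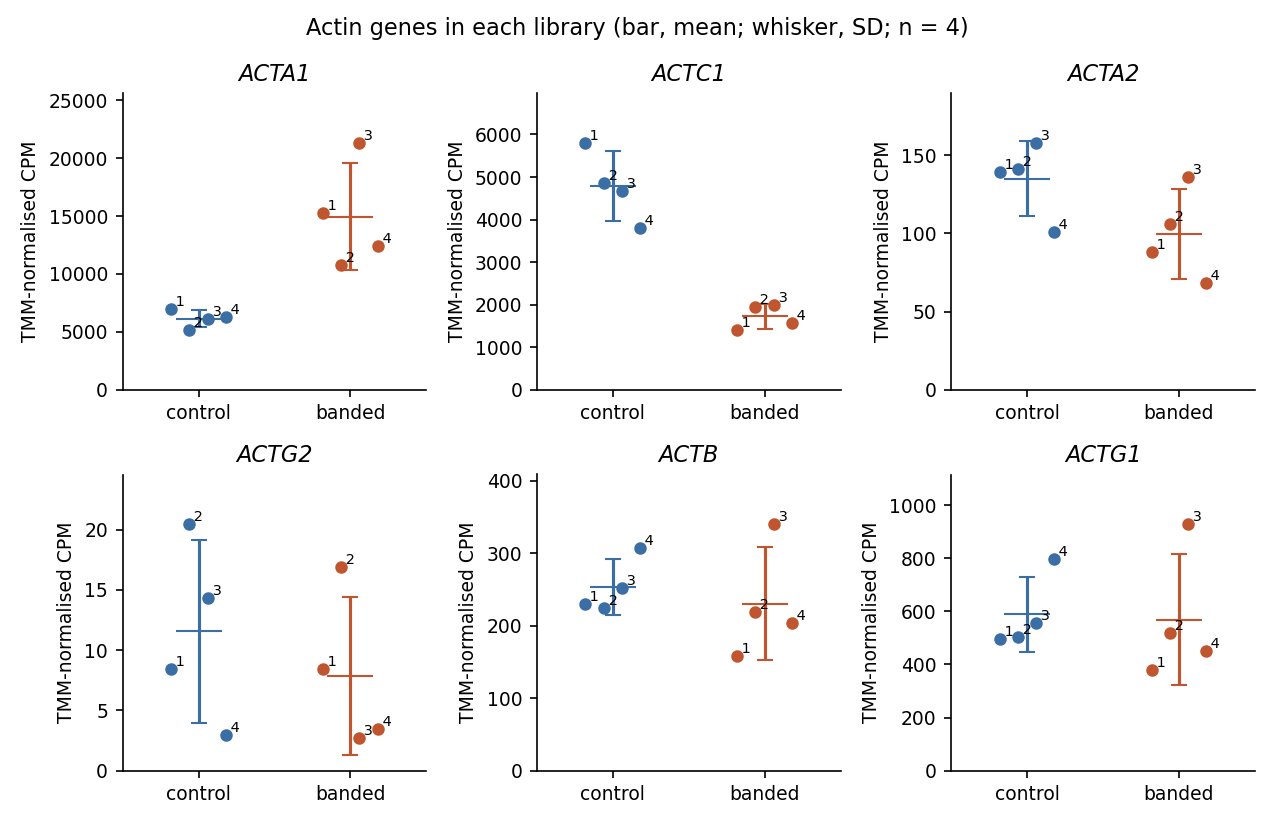
TMM-normalised CPM (vertical axes, linear and starting at 0) of each actin gene in the 4 control and 4 banded libraries. Each point is 1 pig with its library number, the horizontal bar is the group mean and the whisker its SD. ACTA1 lies above all controls in every banded library and ACTC1 below all controls, while the other 4 genes overlap.

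ACTA1, the skeletal isoform, stood at 6983, 5167, 6062 and 6289 CPM in controls 1 to 4. In banded 1 to 4 it stood at 15250, 10790, 21320 and 12380 CPM. Every banded library was above every control, and banded 3 was the highest. The means were 6125 ± 749 CPM in controls and 14930 ± 4638 CPM in banded (SD, n = 4 each), a log2 fold change of 1.29 ± 0.22 (edgeR adjusted p = 0.00688). ACTA1 transcripts made up 0.634 ± 0.082% of all assigned counts in controls and 1.43 ± 0.41% in banded libraries (SD, n = 4 each). Without banded 3 the log2 fold change of ACTA1 was 1.07 ± 0.19 and the call held (edgeR adjusted p = 0.00882).

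The ACTA1 model lies on chromosome 14 (Sscrofa11.1, 60412671 to 60459003, plus strand). It holds 3937 exon bases, of which 1950 lie within the span that RefSeq gives to ACTA1 and 1987 outside it. The model's span also reaches the neighbouring gene CCSAP. Counts cannot be divided between the 2 portions of the model, so its length, and with it the per-kilobase level of ACTA1, is uncertain. The fold change does not use the length, but it rests on counts over both portions.

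ACTC1, the cardiac isoform on chromosome 1 (136281167 to 136286545, plus strand, 1399 exon bases), stood at 5803, 4870, 4673 and 3812 CPM in controls 1 to 4. In banded 1 to 4 its level was 1397, 1942, 1997 and 1558 CPM. The lowest control was above the highest banded library. Group means were 4790 ± 817 CPM (controls) and 1723 ± 292 CPM (banded; SD, n = 4 each). The log2 fold change was -1.48 ± 0.18 (edgeR adjusted p = 0.00133). ACTC1 took 0.501 ± 0.115% of assigned counts in controls and 0.168 ± 0.038% in banded libraries (SD, n = 4 each).

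Within a library, the balance of both sarcomeric actins needs no scaling between libraries. Per kilobase of gene model, ACTA1 was 0.428, 0.377, 0.461 and 0.586 of ACTC1 in controls 1 to 4. The ratio was 3.88, 1.98, 3.79 and 2.82 in banded 1 to 4. ACTC1 was thus ahead in each control, and ACTA1 in each banded library. On the log2 scale the ratio averaged -1.13 ± 0.27 in controls and 1.59 ± 0.46 in banded (SD, n = 4 each), a difference of 2.72. The two-sided exact permutation p was 0.0286, the smallest that 4 against 4 libraries allow, and 0.114 after adjustment over 8 within-family values. The threshold of 0.05 could be met after adjustment only if most of those values reached that floor.

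As a share of ACTA1 plus ACTC1 per kilobase, ACTA1 made up 31.5 ± 4.0% in controls and 74.7 ± 6.1% in banded ventricles (SD, n = 4 each). The difference was 43.3 percentage points (exact permutation p = 0.0286, adjusted 0.114). The order of the pair in controls depends on the model length. With only the exon bases inside the RefSeq spans, the ratio ran from 0.761 to 1.184 in controls, with ACTA1 ahead in control 4, and from 3.99 to 7.83 in banded. By counts without length it ran from 1.06 to 1.65 and from 5.56 to 10.9. The choice of length multiplies this ratio by the same factor in every library. The separation of the groups therefore cannot change with it.

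The sum of both sarcomeric actins did not show such a difference. It was 4979 ± 674 CPM per kb in controls and 5025 ± 1254 CPM per kb in banded libraries (SD, n = 4 each), a log2 difference of -0.01 (exact permutation p = 0.914, adjusted 0.914). This value rests on the ACTA1 length: with RefSeq-span lengths the log2 difference was 0.41 (exact permutation p = 0.0857, adjusted 0.171), and without division by length 0.58 (exact permutation p = 0.0571, adjusted 0.114). None of these passed the threshold. The data therefore do not settle whether the summed sarcomeric actin transcripts differed.

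**Figure D2:**
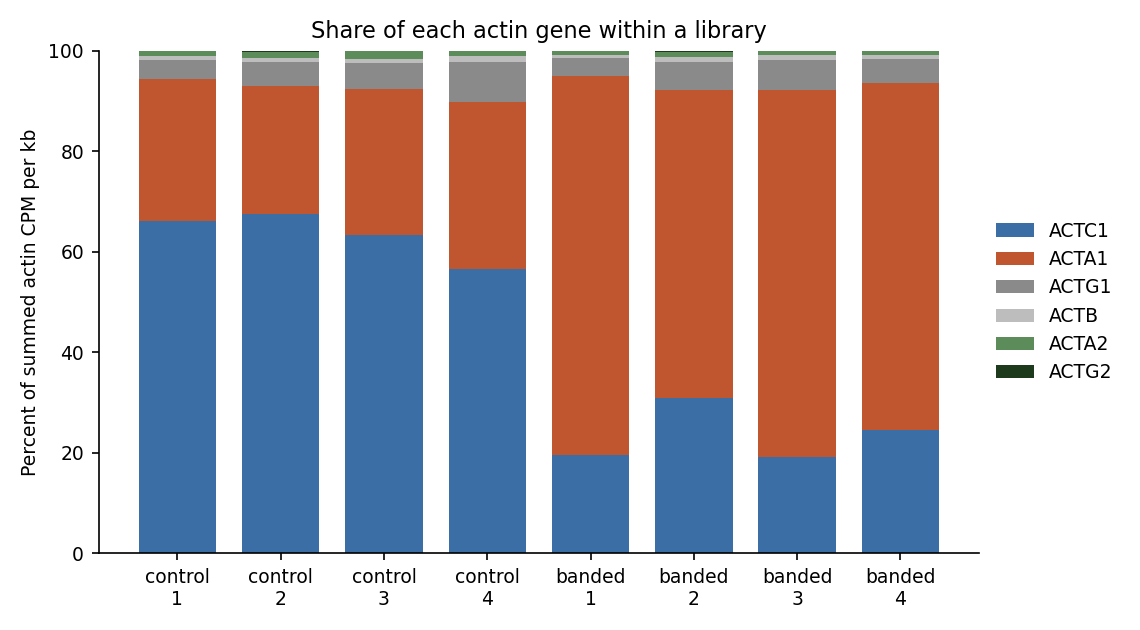
Percent of summed actin CPM per kb of gene model (vertical axis, 0 to 100) contributed by each of the 6 genes, 1 stacked bar per library. ACTC1 makes up 56.56 to 67.49% of the controls and 19.22 to 30.98% of the banded libraries, and ACTA1 25.44 to 33.16% and 61.18 to 75.49%.

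Across all 6 genes, ACTC1 led in every control, followed by ACTA1 and ACTG1, and ACTA1 led in every banded library, followed by ACTC1 and ACTG1, on the per-kilobase scale of the gene models. ACTA2, ACTB and ACTG2 followed in that order in 6 of the 8 libraries. In control 4 and banded 4 ACTB was ahead of ACTA2. The ranges of these neighbours overlapped in both groups: ACTA2 ran from 48.88 to 76.33 CPM per kb in controls and ACTB from 42.48 to 58.2 CPM per kb. The order of ACTA2 and ACTB also depends on the model lengths. Without division by length, ACTB was above ACTA2 in every library. It had 224.5 to 307.5 against 101.1 to 157.9 CPM in controls, and 158.1 to 340.3 against 68.51 to 136.3 CPM in banded. The 4 genes outside the sarcomere together supplied 5.66 to 10.28% of actin CPM per kb in controls and 5.05 to 7.84% in banded libraries.

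ACTA2, the smooth muscle alpha-actin on chromosome 14 (100867733 to 100886713, minus strand, 2069 exon bases), was measured at 139.3, 141.2, 157.9 and 101.1 CPM in controls 1 to 4. The banded libraries 1 to 4 held 87.92, 105.8, 136.3 and 68.51 CPM. Control 4 lay within the banded range, and banded 2 and banded 3 within the control range. The log2 fold change was -0.44 ± 0.21 and did not pass the test (edgeR adjusted p = 0.23).

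The authors' deposited table differs here: it gives ACTA2 a log2 fold change of -0.63 after turning its control-over-banded sign (SE 0.196, adjusted p = 0.018). Of 12959 genes with a mean of at least 10 normalised counts, the values in the authors' deposited table lay within 0.01 of a DESeq2 fit without banded 3 for 12959 genes. Only 838 genes lay that close when all 8 libraries were fitted, and 572 to 883 when any other single library was left out. The DESeq2 fit without banded 3, added after the data were seen, gave -0.62 ± 0.19 for ACTA2 (adjusted p = 0.018). With all 8 libraries and all gene models, DESeq2 gave -0.43 ± 0.22 (adjusted p = 0.222). Whether ACTA2 passes thus depends on 1 library and on the tool, since edgeR without a library gave adjusted p of 0.0715 to 0.45.

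**Figure D3:**
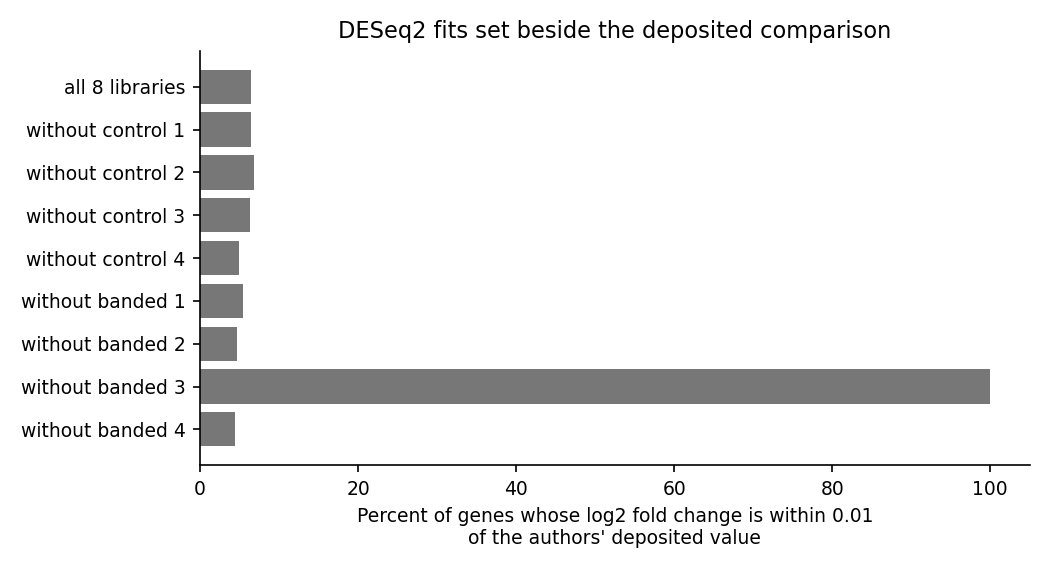
Percent of 12959 genes (horizontal axis) whose DESeq2 log2 fold change lies within 0.01 of the authors' deposited value, for the fit on all 8 libraries and for fits without each library in turn. The fit without banded 3 reaches 100%, and the others lie between 4.41 and 6.81%.

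For the sarcomeric pair the authors' deposited table gives, with the sign turned, 1.06 for ACTA1 (adjusted p = 9.16e-09) and -1.55 for ACTC1 (adjusted p = 3.03e-16). Both calls are therefore made with and without banded 3. For ACTG2, ACTB and ACTG1 the authors' deposited table gives -0.27, -0.39 and -0.39 after the sign is turned, with adjusted p of 0.901, 0.13 and 0.197. None of these 3 was called by either source.

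ACTG2, the gamma-actin of visceral smooth muscle, lies on chromosome 3 (69096782 to 69121349, minus strand, 2303 exon bases). It was the lowest of the family and the most variable. The counts behind it were 287, 706, 511 and 89 in controls and 266, 594, 87 and 100 in banded libraries. The CPM were 8.42, 20.5, 14.4 and 2.94 in controls and 8.4, 16.9, 2.69 and 3.48 in banded. Low and high libraries occurred in both groups. The log2 fold change was -0.55 ± 0.73 (edgeR adjusted p = 0.703), and an error of that size leaves moderate differences undetectable.

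ACTA2 exceeded ACTG2 in every library, by 7.68 to 38.3 times per kilobase in controls and 6.97 to 56.4 times in banded. The log2 ratio of the pair differed between groups by 0.15 (exact permutation p = 0.886, adjusted 0.914). Their sum was 70.2 ± 14.2 CPM per kb in controls and 51.6 ± 14.2 CPM per kb in banded libraries (SD, n = 4 each), a log2 difference of -0.46 (exact permutation p = 0.143, adjusted 0.381).

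Markers of the cells that carry these isoforms did not move as 1 block. Of the 9 smooth muscle markers, edgeR called 1 higher, the myosin light chain gene MYL9, and none lower. Over all genes tested it called 3.47% higher and 3.5% lower. At an unadjusted p under 0.05, 2 of the 9 were higher and 4 lower, beside 3262 of 13697 over all genes. The median log2 fold change of the 9 was -0.42. DESeq2 called 2 of the 9 higher and 2 lower, and limma-voom 2 higher and 1 lower. Over all genes, DESeq2 called 877 higher and 833 lower of 13630, and limma-voom 684 and 657 of 13697. Without control 1, 2 or 3 or without banded 1, edgeR called none of the smooth muscle markers. Their summed level was 973.3 to 1241 CPM in controls and 1505 to 2934 CPM in banded libraries. Most of that difference lay in MYL9 (343 ± 144 to 740 ± 120 CPM) and the calponin gene CNN1 (84.2 ± 23.3 to 532 ± 550 CPM, 1348 CPM in banded 3; edgeR adjusted p = 0.0639). The means of MYH11, SMTN, MYLK, SYNPO2, LMOD1 and MYOCD were lower in banded libraries, and none of these 6 was called by edgeR. MYH11, the smooth muscle myosin heavy chain, had 142 ± 52.8 CPM in controls and 76.2 ± 29.5 CPM in banded (SD, n = 4 each; log2 fold change -0.90, edgeR adjusted p = 0.174). None of the 6 pericyte markers was called by edgeR (0 of 6 higher and 3 lower at an unadjusted p under 0.05; DESeq2 called 2 lower), and their sum was 500.3 to 617.7 CPM in controls and 374.4 to 451.4 CPM in banded. Of the 8 myofibroblast markers 4 were called higher (CTHRC1, FN1, THBS4 and CILP), against 3.47% of all genes tested. The list summed to 640.6 to 749.9 CPM in controls and 1217 to 2141 CPM in banded libraries. Without control 1 or control 2 the count called higher was 2, since CTHRC1 (edgeR adjusted p = 0.05 and 0.0524) and FN1 (0.0641 and 0.066) no longer passed. Further lists summed, in controls and banded libraries, to 7811 to 10880 and 6425 to 11060 CPM (fibroblast), 832.3 to 954.4 and 721 to 921.5 CPM (endothelial), and 465.9 to 722.5 and 707.8 to 1333 CPM (leukocyte). Of the 9 fibroblast markers edgeR called PI16 higher (46.6 ± 10.0 to 203.5 ± 45.5 CPM, adjusted p = 0.000315) and PDGFRA lower (adjusted p = 0.048). Among 9 tested endothelial markers edgeR called EMCN lower (0.0207), and among 11 tested leukocyte markers CD14 higher (0.043). At an unadjusted p under 0.05, 7 of the 11 leukocyte markers were higher and 0 lower. DESeq2 and limma-voom each called 5 of them higher, while edgeR called 0 with 1 surrogate variable or with library size alone. PI16 was also called without each library in turn. Calls of PDGFRA, EMCN and CD14 were each lost without control 1, 2 or 3 or without banded 1. The part of these cells in the ACTA2 and ACTG2 levels was not tested. In bulk tissue, fewer cells of a type and less RNA per cell cannot be told apart.

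ACTB, the beta-actin of the cytoskeleton, lies on chromosome 3 (4082216 to 4090356, minus strand, 5284 exon bases). Its levels were 229.5, 224.5, 251.7 and 307.5 CPM in controls 1 to 4. In banded 1 to 4 they were 158.1, 219.1, 340.3 and 203 CPM. The groups overlapped, with banded 1 lowest and banded 3 highest of all 8. The log2 fold change was -0.14 ± 0.22 (edgeR adjusted p = 0.749).

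ACTG1, the gamma-actin of the cytoskeleton, lies on chromosome 12 (1160350 to 1323217, plus strand, 2062 exon bases). It was measured at 496.8, 504.6, 557.8 and 797.4 CPM in controls 1 to 4. The banded values were 377.5, 518.2, 929.5 and 450 CPM. Again banded 1 was lowest and banded 3 highest. The log2 fold change was -0.05 ± 0.28 (edgeR adjusted p = 0.936). The model's span covers 13 RefSeq genes, ACTG1 included, but only 115 of its exon bases lie outside the RefSeq span of ACTG1.

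Both cytoplasmic actins had their group's highest level in the same libraries, control 4 and banded 3, which are also the libraries with the highest and lowest mitochondrial share. The part of the mitochondrial share in these levels was not tested. ACTG1 was 5.55 to 6.64 times ACTB per kilobase of gene model in controls and 5.68 to 6.999 times in banded libraries. The size of this ratio depends on the model length, since 1993 of the 5284 exon bases of ACTB lie outside its RefSeq span. With RefSeq-span lengths ACTG1 was 3.66 to 4.38 times ACTB in controls and 3.75 to 4.62 times in banded libraries. The log2 ratio of ACTB to ACTG1 was -2.56 ± 0.12 in controls and -2.63 ± 0.13 in banded (SD, n = 4 each), a difference of -0.07 (exact permutation p = 0.429, adjusted 0.857). The sum of the pair was 334 ± 75.7 CPM per kb in controls and 319 ± 135 CPM per kb in banded libraries (SD, n = 4 each), a log2 difference of -0.12 (exact permutation p = 0.714, adjusted 0.914). Over all 6 genes the log2 difference of the sum was -0.02 (exact permutation p = 0.914, adjusted 0.914), and 0.37 with RefSeq-span lengths.

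**Figure D4:**
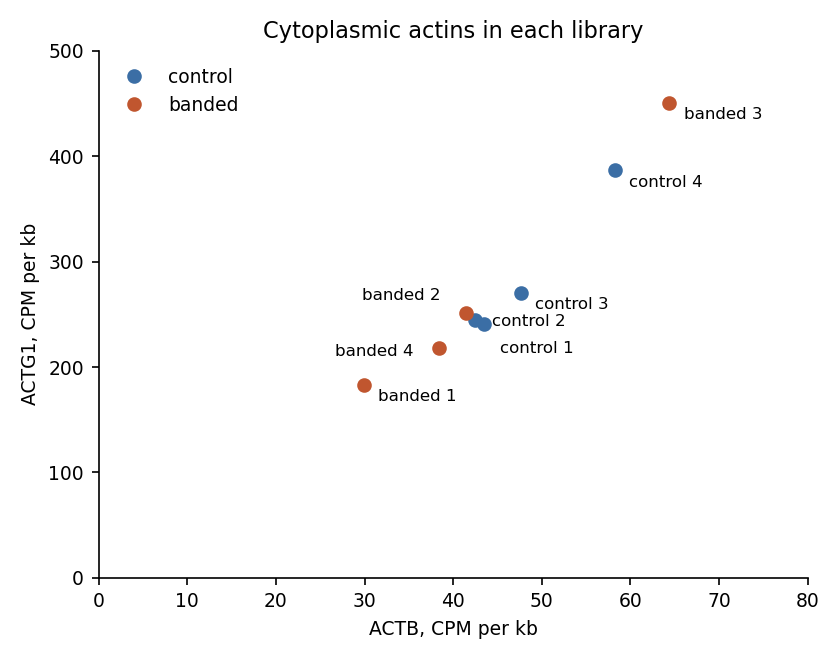
ACTB (horizontal axis) against ACTG1 (vertical axis), both in CPM per kb of gene model on linear axes from 0, 1 point per library. Control and banded points lie along 1 line, with ACTG1 between 5.55 and 6.999 times ACTB at these model lengths.

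The coding sequences of actins are very alike, and reads that fit several of them cannot be assigned with certainty. Reads below a mapping quality of 10 were not counted, and how many actin reads each gene lost by that filter is not given in the sources used here. None of the 6 models shares exon bases with another model on its strand.

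Markers of skeletal muscle, the tissue in which ACTA1 is the main actin, were read beside it. Of 16 skeletal muscle markers 12 were matched and 5 passed the count filter. PVALB and MYOD1 had 0 counts in all libraries, and the fast skeletal troponin T gene TNNT3 reached at most 0.124 CPM. The sum of the list was 16.05 to 27.84 CPM in controls and 43.97 to 135.9 CPM in banded, and 1 gene made up most of it: CASQ1, the calsequestrin of skeletal muscle, with 13.41 to 22.98 CPM in controls and 42.51 to 130.6 CPM in banded (log2 fold change 2.26 ± 0.42, edgeR adjusted p = 0.0194). The CASQ1 call was lost without control 1 (0.0602), without control 2 (0.0642) and with no filter on low counts (0.0525). ACTN3, the fast-fibre alpha-actinin, was called lower (log2 fold change -2.63 ± 0.62, edgeR adjusted p = 0.0287) at under 1 CPM in each library. Its call was lost in 6 of the 8 fits that leave out 1 library, those without control 1, 2, 3 or 4 and without banded 2 or 4 (edgeR adjusted p = 0.0524 to 0.0822). The highest sums, in banded 1 and banded 3, were those of the 2 libraries with the highest ACTA1, and the part of these genes in the ACTA1 level was not tested.

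The genes that supply and handle actin were read from 6 lists. Over all genes tested, edgeR called 3.47% higher, 3.5% lower and 6.97% in either direction. DESeq2 called 877 higher and 833 lower of 13630 genes. For lists of this size, 1 call by edgeR is near those shares. Of the 23 tested genes of monomer turnover, which bind, sever or recycle actin, edgeR called 0. At an unadjusted p under 0.05, 6 were higher and 1 lower, beside 3262 of 13697 over all genes tested. For this list DESeq2 called 3 higher and 1 lower, and limma-voom 2 higher and 0 lower. The list's median log2 fold change was 0.25, beside 0.01 over all genes. It was smaller without banded 3 (0.14) or control 2 (0.17) and with 1 surrogate variable (0.15). Its most abundant member per kilobase, the monomer-binding thymosin gene TMSB10, had 591 ± 104 CPM in controls and 704 ± 114 CPM in banded (SD, n = 4 each; log2 fold change 0.25 ± 0.17, edgeR adjusted p = 0.404). The genes called by DESeq2 were named after their values were seen. They are PFN1, profilin (247 ± 34.2 to 375 ± 97.2 CPM, DESeq2 adjusted p = 0.0205), CFL2, muscle cofilin (145 ± 22.6 to 248 ± 104 CPM, 0.0255), and CAP2 (87.6 ± 2.38 to 113 ± 6.09 CPM, 0.0071). GSN, the filament-severing gelsolin, was lower (2563 ± 623 to 1525 ± 392 CPM, DESeq2 adjusted p = 0.0129); edgeR gave these 4 adjusted p of 0.0751, 0.0942, 0.0685 and 0.0716.

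Among the 23 tested nucleators, which start new filaments, 1 was called higher and none lower, with a median of 0.16. The median was 0.05 without banded 3, 0.06 with 1 surrogate variable and 0.08 with limma-voom. DESeq2 called 3 higher and 1 lower. ARPC2, a subunit of the Arp2/3 complex, stood at 171.4, 144.2, 171.7 and 195.5 CPM in controls and at 228.4, 266.8, 285.2 and 317.6 CPM in banded libraries. The groups did not overlap, and ARPC2 rose by 0.69 ± 0.15 on the log2 scale (edgeR adjusted p = 0.0203). Leaving out control 1, 2 or 3 ended its call (edgeR adjusted p = 0.0656, 0.0764 and 0.067). Named after their values were seen, the others called by DESeq2 were ARPC5L, another subunit of that complex (13.7 ± 3.69 to 21.8 ± 5.17 CPM, DESeq2 adjusted p = 0.0377), and the formins DIAPH3 (0.573 ± 0.353 to 2.90 ± 2.42 CPM, 0.00327) and DAAM2, which was lower (24.4 ± 3.20 to 16.1 ± 4.02 CPM, 0.0351). For these 3 edgeR gave adjusted p of 0.0821, 0.0601 and 0.0707. ARPC3, the most abundant nucleator per kilobase, did not pass (log2 fold change 0.33 ± 0.14, edgeR adjusted p = 0.181).

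Of the 17 tested genes of thin filament structure, 1 was called lower and none higher, with a median of 0.13. DESeq2 called 2 higher and 1 lower. TMOD1, LMOD3 and KLHL41 of the list were not matched to a gene model, so their levels are not known here. The median rested on single libraries: it was -0.01 without banded 3, 0.05 without control 2 or control 3, 0.07 without banded 4, and -0.001 with 1 surrogate variable. It was 0.22 without banded 2 and 0.21 without control 4. TMOD2, a tropomodulin that caps the pointed end of actin filaments, stood at 15.72, 13.2, 13.6 and 12.09 CPM in controls and 7.01, 7.22, 7.27 and 5.67 CPM in banded. Every control was above every banded library. The log2 fold change was -1.01 ± 0.16 (edgeR adjusted p = 0.0044), and the call held in 17 of 17 alternatives. The pair called higher by DESeq2, named after their values were seen, were LMOD2, the cardiac leiomodin that lengthens thin filaments (545 ± 175 to 975 ± 294 CPM, DESeq2 adjusted p = 0.014), and NEB, the giant nebulin of skeletal thin filaments (23.4 ± 12.3 to 68.0 ± 13.7 CPM, 0.000404). With edgeR they had adjusted p of 0.0778 and 0.0631. TPM1, the alpha-tropomyosin that lies along the filament, was the most abundant of the list per kilobase and did not pass (log2 fold change 0.13 ± 0.20, edgeR adjusted p = 0.752). Its mean was 624.6 CPM per kb, beside 1.21 CPM per kb for TMOD2. The only edgeR call of the list thus lay in a scarce transcript.

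Of the 16 tested genes that fold or modify new actin, PFDN1 was called higher and none lower, with a median of 0.14, which was 0.05 without banded 3, 0.09 without banded 4 and 0.23 without control 4. This prefoldin subunit passes unfolded actin to the chaperonin CCT, and its level was 55.0 ± 8.49 CPM in controls and 82.8 ± 11.9 CPM in banded (SD, n = 4 each; log2 fold change 0.59 ± 0.15, edgeR adjusted p = 0.0371). The groups overlapped, and the call was lost in 6 of 17 alternatives, each of which leaves out 1 library (control 1, 2 or 3, banded 1, 3 or 4; edgeR adjusted p = 0.05 to 0.125). CCT7, a CCT subunit and the most abundant of the list per kilobase, had a log2 fold change of 0.08 ± 0.14 (edgeR adjusted p = 0.766). The median of this list was 0.06 both with 1 surrogate variable and with limma-voom.

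SRF is a transcription factor that drives actin genes, and its MRTF coactivators are held back by free actin monomer. Of its 11 tested regulators, itself included, edgeR called 0. At an unadjusted p under 0.05, 0 were higher and 2 lower, beside 3262 of 13697 over all genes tested. The list's median was -0.08. Without 1 library the median ranged from -0.25 (without banded 3) to -0.03 (without banded 4). The 2 lower at that level, named after their values were seen, were SRF (69.4 ± 6.99 to 45.7 ± 12.7 CPM) and its partner ELK4 (17.4 ± 1.14 to 12.0 ± 2.12 CPM). DESeq2, limma-voom and scaling by library size each called both lower (adjusted p for SRF 0.0369, 0.0161 and 0.0372), while edgeR gave 0.0769 for SRF and 0.0592 for ELK4. Without banded 3 edgeR also called both lower (0.0479 for SRF and 0.0309 for ELK4), and without banded 4 SRF (0.041). ABRA, the most abundant regulator per kilobase, ranged from 44.49 to 404.4 CPM in controls and 64.1 to 374.6 CPM in banded (edgeR adjusted p = 0.858).

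Of 15 known SRF target genes outside the actin family, 1 was called higher and none lower, with a median of 0.27. That median was -0.02 without banded 3, -0.01 with 1 surrogate variable and 0.03 with limma-voom, and 0.40 and 0.41 without banded 1 and banded 4. DESeq2 called 4 higher, MYL9 and, named after their values were seen, CNN1, ACTN1 and CCN2 (edgeR adjusted p = 0.0639, 0.0583 and 0.157). MYL9, the light chain of smooth muscle and non-muscle myosin, stood at 408.9, 198, 252.1 and 512.6 CPM in controls and 755.6, 567.8, 836.4 and 801.9 CPM in banded. The groups did not overlap, and MYL9 rose by 1.11 ± 0.28 on the log2 scale (edgeR adjusted p = 0.0378). It passed in 10 of 17 alternatives. The other 7 were the fit with 1 surrogate variable (adjusted p = 0.0585) and those without control 1, 2 or 3 or without banded 1, 3 or 4 (edgeR adjusted p = 0.0655 to 0.112).

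**Figure D5:**
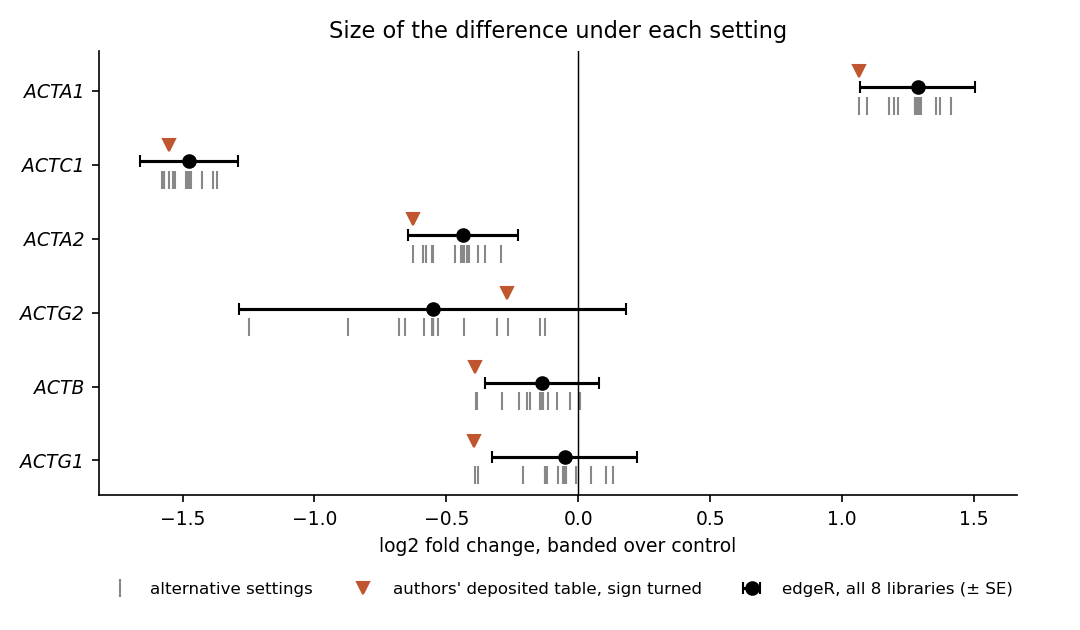
Log2 fold change of banded over control (horizontal axis) for the 6 actin genes. Black points with whiskers are the edgeR estimate on all 8 libraries ± SE, grey ticks the alternative settings, and triangles the authors' deposited value with its sign turned. All ticks of ACTA1 lie above 0 and all of ACTC1 below it, while those of ACTB and ACTG1 fall on both sides.

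The genes with the pattern most like each actin were found by the root mean square difference of mean-centred log2 CPM over the 8 libraries, among 7244 named genes with a mean of at least 10 CPM. For ACTA1 they were INPP5F (difference 0.176), GYG1 (0.177) and HSPB7 (0.18), against a spread of ACTA1 itself of 0.684 (SD). For ACTC1 they were STRIP2 (0.227), RNF207 (0.237) and PTPRK (0.257), against 0.768. For ACTA2 they were FRMD4A (0.107), PDGFRB (0.138) and TLE4 (0.143), against 0.385. PDGFRB is a receptor of pericytes and fibroblasts. For ACTG2 no gene was close: PROB1 (0.606), MYH11 (0.613) and FBXO32 (0.644) came nearest, against 1.09.

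ACTB was nearest to MYADM (0.104), MTA2 (0.113) and VASP (0.114), and ACTG1 to KLF6 (0.128), DYNLT5 (0.139) and ACTR3 (0.153). The difference between ACTB and ACTG1 themselves was 0.112, against spreads of 0.323 and 0.4. The sarcomeric pair were far from each other, at 1.4. These are descriptions over 8 libraries that share their depth and scaling, and ranks this close are not separated by the data.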

How the data were processed

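Bulk RNA-seq of right ventricular free wall from 4 control and 4 banded pigs was used, and samples were grouped by their treatment labels. Reads were processed with Trimmomatic, HISAT2, featureCounts and DESeq2 per the submitters' processing notes; for the aligner, settings are not given in the sources used here. Counts per gene, as deposited, are whole numbers made by featureCounts 1.6.2 with Ensembl release 106 annotation of Sscrofa11.1, mapping quality of at least 10 and reverse-stranded pairs, per the file headers. The authors' deposited table of control over banded also holds mean normalised counts (signal), log2 fold changes, test scores and p-values with adjusted p-values; its sign was turned for comparison.

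Tests used edgeR 4.0.16 (R 4.3.3; filterByExpr with a minimum count of 10, TMM, robust quasi-likelihood, threshold 0.05) on all genes. Alternatives used DESeq2 1.42.0, limma 3.58.1, sva 3.50.0, other scalings and filters, and each library left out. Ratios and sums within the family were compared by two-sided exact permutation over the 70 assignments of libraries, from counts plus 0.5 for ratios, per kilobase of gene model. Scripts were tested on simulated data. Depth was 31033679 to 34183338 counts per library. Gene names came from the reference table (15029 models), the authors' table (713), one-to-one human names (474) and RefSeq positions (633).

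The members and lists were chosen with earlier results of these data known. Named were the 6 members, for each pathway list the 2 called genes of smallest adjusted p and the gene most abundant per kilobase, and for each member the 3 genes of most similar pattern; names outside this rule are marked in the text, other than markers. No sequences are printed.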

Additional observations from a re-analysis of the deposited data

Results flagged for a closer look

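Among the 152 groups of 4 libraries looked at, over the members, the within-family values, the list sums and the list genes, 10 held a library far from the other 3, by the gap to its nearest neighbour as a share of the group's range (Dixon's test). Chance alone gives such a gap in about 1 of 20 groups. None of the 10 was an actin gene or a within-family value.

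Of these 10, 5 were in banded 3. The smooth muscle list summed to 2934 CPM there, against 1505 to 1661 CPM in the other banded libraries, and CNN1, a calponin of smooth muscle, stood at 1348 CPM against 156.2 to 349.5 CPM. CNN1 is a member of that list, so these flags are not independent. PFN1, profilin, was 519.7 CPM against 314.5 to 337.1 CPM, and NRAP, an actin-anchoring gene of striated muscle, 2024 CPM against 417.4 to 652.5 CPM. LMOD1, a smooth muscle leiomodin, was lowest there, with 2.721 CPM against 9.315 to 9.979 CPM.

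In banded 1 the adipocyte list summed to 634.9 CPM against 124.6 to 195.6 CPM, and NEB, nebulin, stood at 88.39 CPM against 58.39 to 63.47 CPM. In banded 4 the erythroid list summed to 1781 CPM against 128.9 to 172.8 CPM, and TMOD2 was lowest, with 5.666 CPM against 7.011 to 7.265 CPM. Among controls, the mesothelial list was highest in control 4, with 18.43 CPM against 5.691 to 6.642 CPM.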

How the results depend on the processing

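ACTA1 and ACTC1 kept their direction and call in 18 of 18 alternatives each: without 1 library the log2 fold change ranged from 1.07 to 1.41 for ACTA1 (edgeR adjusted p 0.00466 to 0.0323) and from -1.57 to -1.37 for ACTC1 (0.00154 to 0.00707). ACTA2 was called in 1 of 18, DESeq2 without banded 3 (-0.62); ACTG2 in none of 18. Without 1 library the range was -0.39 to 0.006 for ACTB (above 0 without banded 1) and -0.39 to 0.13 for ACTG1 (above 0 without control 4, banded 1 or banded 4). Ranges for log2 differences were -0.41 to 0.60 for the ACTA2 to ACTG2 ratio, -0.17 to 0.079 for the sarcomeric sum, -0.38 to 0.045 for the cytoplasmic sum and -0.18 to 0.057 for the sum of all 6. Without length these sums reversed to 0.58 (sarcomeric) and 0.53 (all 6), and with RefSeq-span lengths, chosen after seeing the data, to 0.41 and 0.37, since the ACTA1 model then weighs more. Genes called higher numbered 475, 877 with DESeq2, 303 with library size alone and 201 to 499 without 1 library; genes called lower numbered 479, 833 with DESeq2 and 198 to 476 without 1 library, the fewest without control 1, 2 or 3 (201, 211 and 208 higher; 198, 204 and 201 lower). The cause was not tested. No paired analysis was possible because the labels give no replicate numbers that the groups share. Depth limits ACTG2 most, with 87 to 706 counts per library.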
